A study of Bos taurus with 12 samples.

Results

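Immediate early genes are transcribed within minutes of a stimulus, from factors already present in the cell and without new protein synthesis. The transcripts of 8 of them were followed in the granulosa and theca cells of bovine ovarian follicles. FOS, JUN and JUNB encode subunits of AP-1, a dimeric transcription factor, and ATF3 encodes a stress-induced factor of the related ATF/CREB family. EGR1 encodes a zinc finger transcription factor, and NR4A1 encodes an orphan nuclear receptor. ZFP36 encodes a protein that binds AU-rich elements and promotes the decay of messenger RNAs, and DUSP1 encodes a phosphatase that inactivates MAP kinases, so both act as brakes on the response. In the ovary these genes are known to respond to gonadotropins and growth factors, and in many tissues they also respond to handling.

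The genes were found by symbol in the platform annotation, and 8 of 8 had a probe set. They were read by 14 of the 24016 probe sets that were not controls, against 9155 named genes on the array. All 14 passed the filter on low signals, as did 17236 probe sets in all. FOS had 2 probe sets, JUN had 5, EGR1 had 2, and each of the other 5 genes had 1. The probe set with the highest mean log2 signal stands for a gene unless another is named, and the others are told apart by their order of brightness.

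The RNA came from ovaries of young, nonpregnant, cycling heifers in the follicular stage, collected under 10 min after death and kept on ice. Granulosa cells line the follicle from within as an epithelium, and theca cells form a vascularised, androgen-producing sheath around it. Both were taken from untreated small (up to 5 mm), medium (5 to 10 mm) and large (over 10 mm) follicles. Each of the 6 groups had 2 Affymetrix arrays, called replicates 1 and 2 as in the titles, and each array carried pooled RNA. A pool held cells of 20 to 40 follicles according to the extraction protocol, or of 20 to 40 ovaries from 6 to 10 animals according to the design text. The replicates are labelled as separate biological samples, so p-values measure the spread between pools, and whether pools shared animals is not stated. How the 2 layers were separated is not given in the sources used here. The sample descriptions name theca for all 12 arrays, so the layer was taken from the titles.

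The markers of the layers followed the titles. Of 13 tested granulosa markers, 10 were higher in the granulosa arrays and 0 lower, and 6 of 7 tested theca markers were lower there. The summed theca marker signal was 2099 to 3540 on granulosa arrays and 19450 to 31460 on theca arrays, and the granulosa marker sum was 22590 to 34550 and 9858 to 25270, so those ranges overlap. Markers of fibroblasts (7 of 8 lower in granulosa), endothelium (7 of 8) and smooth muscle and pericytes (6 of 8) also separated the layers. No listed marker was at 0 on any array, but a signal above 0 does not show that a cell type was present. On single arrays up to 10 of 11 lymphocyte, 7 of 9 endothelial and 6 of 6 red blood cell markers were below the filter signal of 22.5. In bulk RNA, fewer cells of a type and less RNA per cell cannot be told apart. The number of arrays limits the precision. Replicate arrays had rank correlations of 0.867 to 0.948 over all probe sets.

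A pair of the 12 arrays stood apart. On theca small replicate 1 the GAPDH control probe sets had a ratio of the 3′ to the 5′ signal of 8.36, against 0.984 to 1.30 on the other arrays, a measure that rises when RNA is degraded. On granulosa large replicate 1 the beta-actin ratio was 21.0, against 2.39 to 11.2 elsewhere, and the median signal was 48.8 against 33.7 to 39.2. The log2 level of HBB, a haemoglobin chain, was 9.22 on that array and 4.57 to 6.05 on the others. The control genes did not all set these arrays apart. The GAPDH ratio of granulosa large replicate 1 was 1.15, and the beta-actin ratio of theca small replicate 1 was the 11.2 given above. Their ratios for a further control, EF1a, were 0.0873 and 0.202, within the 0.057 to 0.22 of all arrays. For some of the member results that rest on these arrays, values without them are also given, and the rest are from all 12 arrays.

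The first comparison set granulosa against theca over all follicle sizes. Of the 8 members, 6 were higher in granulosa: ZFP36 (3.66-fold), ATF3 (3.60-fold), JUN (2.67-fold), DUSP1 (1.99-fold), EGR1 (1.80-fold) and JUNB (1.72-fold). FOS and NR4A1 did not pass the test. Calls were made with limma at a Benjamini-Hochberg adjusted p under 0.05, on log2(signal + 16), a scale that understates the fold of dim genes. Of all 17236 tested probe sets, 24.8% were called in this comparison and 13.6% were higher in granulosa. The median change of the 8 members was 0.92 on the log2 scale, against 0.10 over all tested probe sets. The split of all calls, 2337 higher to 1936 lower, became 1768 to 2303 when arrays were scaled to one median, and the same number of members, 6, was called there and in each of the other 21 alternatives.

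**Figure D1:**
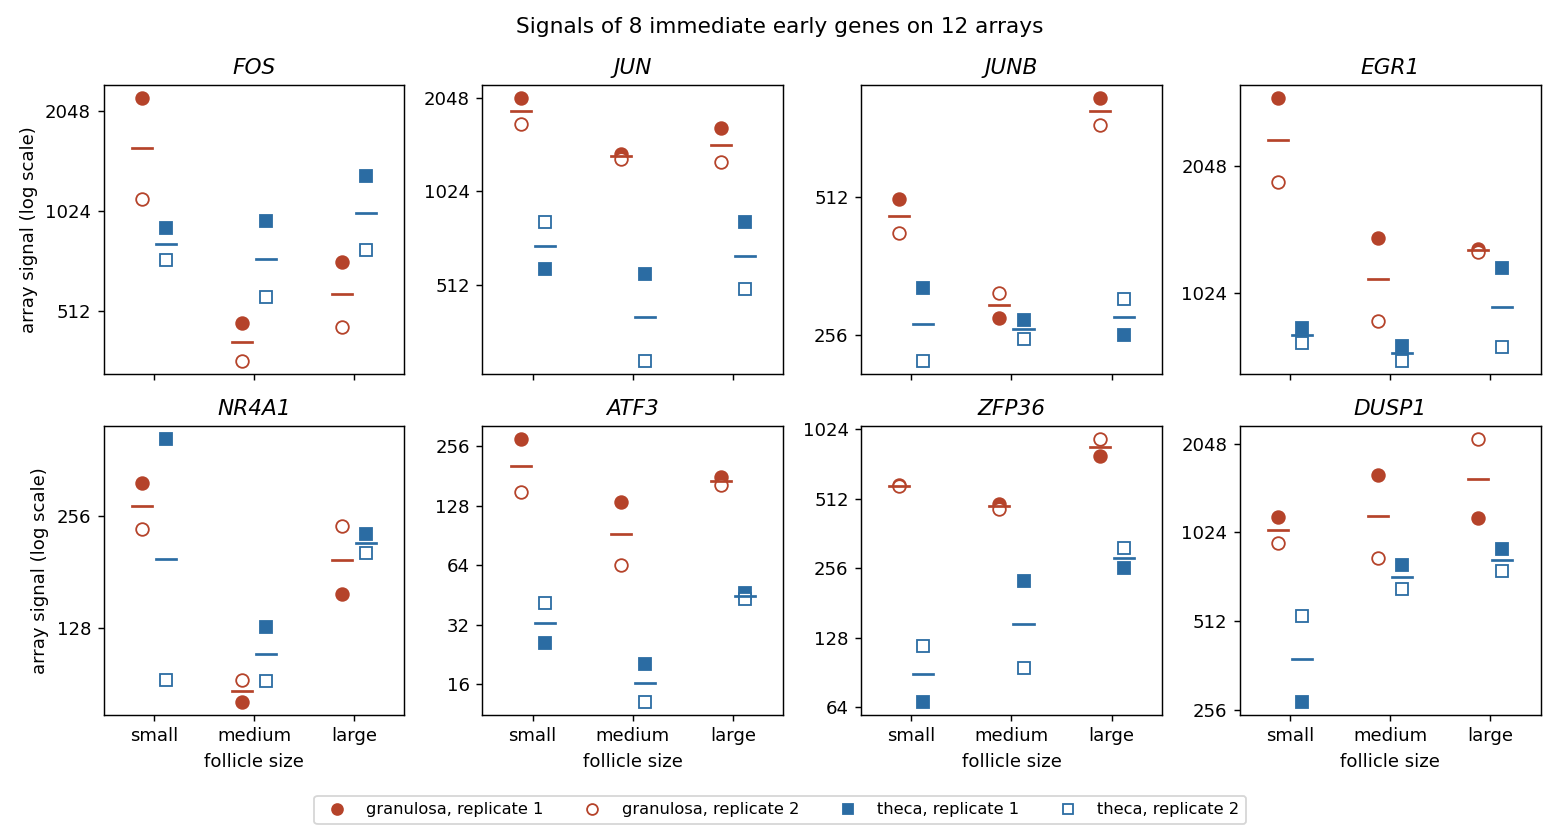
Array signal (log scale) of each immediate early gene at its representative probe set by follicle size, with 1 point per array (circles granulosa, squares theca, filled replicate 1, open replicate 2) and a bar at the mean of the log2 values of both replicates. ATF3, JUN and ZFP36 show all 6 granulosa arrays above all 6 theca arrays, while the layers overlap for FOS and NR4A1.

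Among the AP-1 genes, JUN, the main partner of the FOS proteins, had granulosa signals of 2042 and 1681 in small, 1349 and 1299 in medium and 1633 and 1267 in large follicles (replicates 1 and 2 in that order, here and below). Its theca signals were 574 and 816 in small, 553 and 292 in medium and 814 and 497 in large follicles. The lowest granulosa array thus lay above the highest theca array. The difference was 1.42 ± 0.22 (log2, SE of the model, n = 6 arrays per layer, limma adjusted p = 0.000405). The other JUN probe sets differed in size: the next brightest gave 1.21, the third 2.29 and the fourth 1.02, all called, whereas the dimmest, with signals of 9.9 to 32.3, gave 0.17 and was not called (limma adjusted p = 0.530).

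ATF3 read 279 and 150.1 in small, 134 and 63.9 in medium and 178.5 and 162 in large granulosa pools. In theca it read 25.9 and 41.2 in small, 20.3 and 13.1 in medium and 46.2 and 43.2 in large pools. The layers did not overlap. Both medium theca arrays lay below the filter signal of 22.5, where the scale understates folds most. The difference was 1.85 ± 0.22 (adjusted p = 4.84e-05 with limma).

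JUNB, an AP-1 subunit that can restrain JUN, read 507 and 428 in small, 279 and 317 in medium and 838 and 733 in large granulosa pools, and 324 and 226, 277 and 251, and 256 and 307 in the theca pools of the same sizes. Here 4 of the 6 granulosa arrays exceeded the highest theca array, and the medium granulosa pools lay within the theca range. The difference over all sizes was 0.78 ± 0.18 (limma adjusted p = 0.00632).

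FOS, the classic early partner of JUN, behaved otherwise. Its granulosa signals were 2243 and 1115 in small, 468 and 362 in medium and 719.6 and 458 in large follicles. Its theca signals were 911.5 and 730, 956 and 563, and 1306 and 780. Only 1 granulosa array, small replicate 1, exceeded the highest theca array, and the medium and large granulosa pools were below every theca pool of their own size. Over all sizes the difference was -0.22 ± 0.24 (limma adjusted p = 0.532).

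The zinc finger gene EGR1 had granulosa signals of 2979 and 1879 in small, 1382 and 880.2 in medium and 1301 and 1284 in large follicles, against 845 and 779, 767 and 707, and 1177 and 763 in theca. All granulosa arrays but medium replicate 2 lay above the highest theca array, large replicate 1. The difference was 0.85 ± 0.20 (limma adjusted p = 0.00858). The dimmer EGR1 probe set, with 46.7 to 101 in granulosa and 21.8 to 41.6 in theca, did not overlap and gave 0.77 (adjusted p = 0.00824).

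NR4A1 read 314 and 236, 80.9 and 92.2, and 158 and 239.7 in small, medium and large granulosa pools. In theca it read 412 and 92.5, 128 and 91.6, and 229 and 204. The highest array of all was theca small replicate 1, one of the pair that stood apart, and no granulosa array exceeded it. The difference was 0.00 ± 0.29 (limma adjusted p = 0.999), and without both arrays that stood apart it was 0.42 (adjusted p = 0.130).

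Both brakes were higher in granulosa. ZFP36 read 588 and 578 in small, 487 and 464 in medium and 786 and 927 in large granulosa pools, against 67.9 and 118, 225 and 94.9, and 258 and 313 in theca. Every granulosa array lay above every theca array, with a difference of 1.87 ± 0.22 (limma adjusted p = 4.51e-05). DUSP1 read 1156 and 938.5, 1605 and 839, and 1145 and 2123 in granulosa, and 273 and 534, 794 and 659.6, and 900.4 and 755 in theca. Granulosa medium replicate 2 was the one granulosa array below the highest theca array, and the difference was 0.99 ± 0.24 (limma adjusted p = 0.00918).

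Counted over probe sets, 7 of the 14 had every granulosa array above every theca array: 4 of JUN and 1 each of EGR1, ATF3 and ZFP36. Of all tested probe sets, 5.10% had that pattern and 5.22% had the opposite one. The 6 called members kept their call and their direction in every one of the 22 alternatives run, including those that left out each array in turn. The theca arrays carried the endothelial, fibroblast and smooth muscle markers given above, and the part of those cells in the member levels was not tested.

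The 2 FOS probe sets read the layers differently. The dimmer one gave 1078 and 407 in small, 211 and 183 in medium and 316 and 182 in large granulosa pools, and 42.7 and 161, 245 and 133, and 494 and 185 in theca. Over all sizes its difference was 0.84 ± 0.34 (limma adjusted p = 0.0853), against -0.22 for the brighter one. The ratio of the brighter to the dimmer signal was 21.4 on theca small replicate 1, 2.64 to 4.53 on the other theca arrays and 1.98 to 2.74 on the granulosa arrays.

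The JUN probe sets differed in this respect. The ratio of the brightest to the third brightest was 11.4 on theca small replicate 1, 3.24 to 5.28 on the other theca arrays and 1.91 to 2.54 on the granulosa arrays. On the same array the ratio of the brightest to the next brightest was 0.872 and that to the fourth was 4.72, each the lowest of the 12 arrays. The array with the highest GAPDH 3′ to 5′ ratio was thus at the top for FOS and for this JUN pair and at the bottom for the other JUN pairs. For the third brightest JUN probe set the ratios of the layers did not overlap, while the FOS ratios overlapped by 1 theca array. Where each probe set lies along its transcript was not analysed here, and the part of RNA quality in these ratios was not tested.

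**Figure D2:**
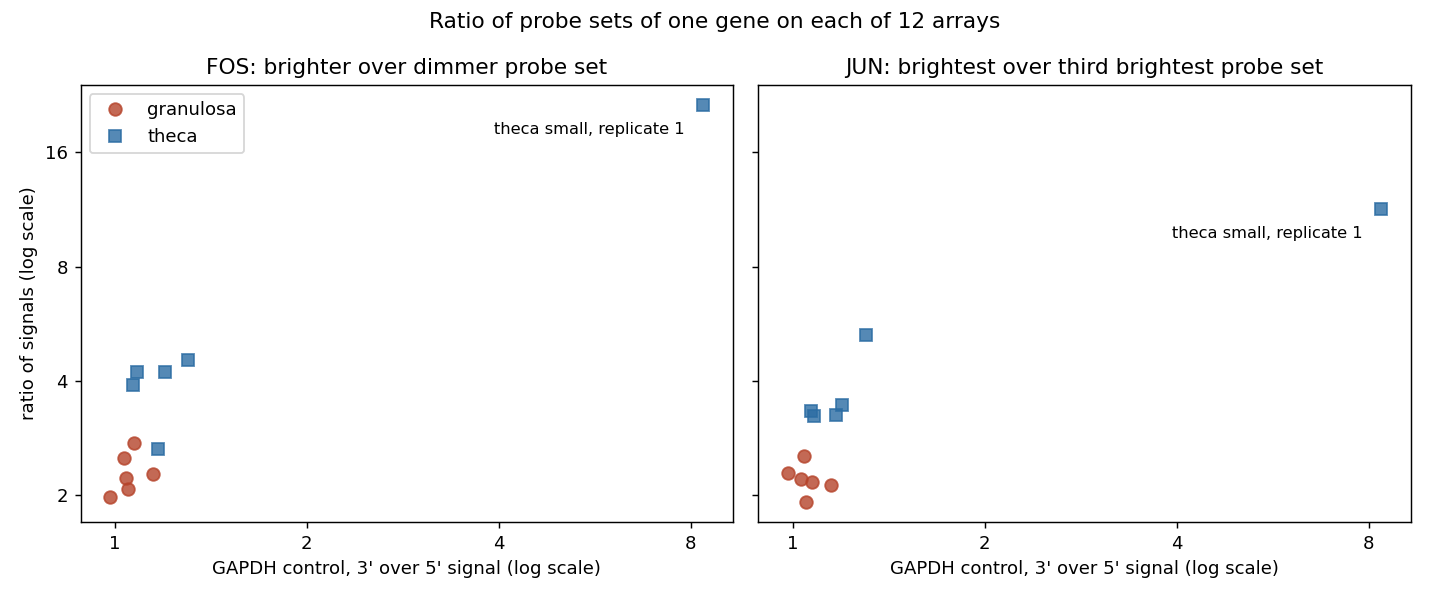
Ratio of a brighter to a dimmer probe set of one gene (vertical, log scale) against the 3′ over 5′ ratio of the GAPDH control (horizontal, log scale) on each array, for FOS on the left and JUN on the right. Theca small replicate 1 stands apart on both axes, with 21.4 for FOS and 11.4 for JUN, and the other theca arrays lie mostly above the granulosa arrays. Only the JUN pair with that pattern is drawn.

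Within small follicles, 4 of 8 members were higher in granulosa, against 4.06% of all tested probe sets (9.14% were called in either direction). ZFP36 was 5.64-fold higher (2.50 ± 0.38 on the log2 scale, n = 2 pools per layer, limma adjusted p = 0.00138), ATF3 4.52-fold (2.18 ± 0.38, 0.00348), EGR1 2.88-fold (1.53 ± 0.35, 0.0173) and JUN 2.67-fold (1.42 ± 0.38, 0.0324). The dimmer EGR1 probe set was not called here (0.81, limma adjusted p = 0.125). Among the other JUN probe sets, the next brightest (1.80) and the third (3.12) were called, and the fourth (0.96) and the dimmest (-0.02) were not. The call in small follicles was kept in all 22 alternatives by ZFP36 and ATF3. JUN lost it without granulosa replicate 1 (adjusted p = 0.130), granulosa replicate 2 (0.113) or theca replicate 1 (0.164), and EGR1 lost it without granulosa replicate 1 (0.114) or theca replicate 1 (0.0650), so that 2 members remained called without either replicate 1.

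The other 4 members had positive differences that did not pass in small follicles: DUSP1 1.41 (adjusted p = 0.0521), FOS 0.94 (0.178), JUNB 0.75 (0.146) and NR4A1 0.42 (0.643). The dimmer FOS probe set was called at 2.74 ± 0.59 (adjusted p = 0.0118 with limma). That call was lost without theca small replicate 1 (1.94, adjusted p = 0.114) and without granulosa small replicate 1 (2.05, 0.102). NR4A1 gave 1.41 (adjusted p = 0.0481) without both arrays that stood apart and -0.57 without theca small replicate 2. DUSP1 passed in 7 of the 22 alternatives (adjusted p down to 0.0205), and FOS in 1, the mean of its probe sets (1.84, adjusted p = 0.0287).

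Within medium follicles 3 of 8 members were higher in granulosa, against 1.79% of all tested probe sets (6% in either direction). JUN was 3.20-fold higher (limma adjusted p = 0.0161), ATF3 3.37-fold (0.0139) and ZFP36 3.0-fold (0.0246). DUSP1 (0.67), EGR1 (0.57) and JUNB (0.16) had smaller differences, and NR4A1 (-0.28) and FOS (-0.81) had negative ones, none of which passed. The dimmer FOS (0.105) and EGR1 (0.73) probe sets were positive and not called. Among the other JUN probe sets, the third brightest (2.06) and the fourth (1.44) were called, and the next brightest (1.115) and the dimmest (0.13) were not. No member was called in limma without granulosa medium replicate 1 or without theca medium replicate 2, and 1 was called without granulosa medium replicate 2. The highest adjusted p among those fits was 0.388 for ZFP36, 0.279 for JUN and 0.166 for ATF3, the latter also missing the threshold without theca medium replicate 1 (0.0594). In the fit of all 12 arrays, 3 members and 18.4% of all tested probe sets had an unadjusted p under 0.05.

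Within large follicles the called members were JUNB (2.70-fold, 1.43 ± 0.31, limma adjusted p = 0.0199), ATF3 (3.07-fold, adjusted p = 0.0302) and ZFP36 (2.90-fold, adjusted p = 0.0383), against 2.02% of probe sets higher in granulosa and 4.41% called in either direction. JUN gave 1.16 (limma adjusted p = 0.0994), DUSP1 0.91 (0.238), EGR1 0.44 (0.505), NR4A1 -0.14 (0.907) and FOS -0.80 (0.300). The third brightest JUN probe set was called just under the threshold (1.68, limma adjusted p = 0.0499). The remaining JUN probe sets (0.40 to 0.71) and the dimmer FOS (-0.32) and EGR1 (0.75) probe sets were not called. The granulosa pools of JUNB were at their highest here, whereas its theca pools spanned 226 to 324 over all sizes. Without granulosa large replicate 1 the 3 genes had differences of 1.34, 1.56 and 1.65 and adjusted p of 0.102, 0.132 and 0.111, so 0 members were called, and the same held without both arrays that stood apart, when 1% of all probe sets were called higher in granulosa. Leaving out theca large replicate 1 or replicate 2 also gave 0, with adjusted p from 0.0978 to 0.224, and leaving out granulosa large replicate 2 gave 1, with ATF3 at 0.0586 and ZFP36 at 0.0965. ZFP36 also missed the threshold without granulosa small replicate 1 (0.0539) or 2 (0.0536). Summed myeloid marker signals were 17480 and 7008 in the large granulosa pools, 689.7 to 1835 in the other granulosa pools and 1410 to 4162 in theca, and the part of those cells in the JUNB level was not tested. Scaled to one median, the large comparison called 213 probe sets higher and 672 lower, against 348 and 412 as deposited, and 1 member, ATF3.

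**Figure D3:**
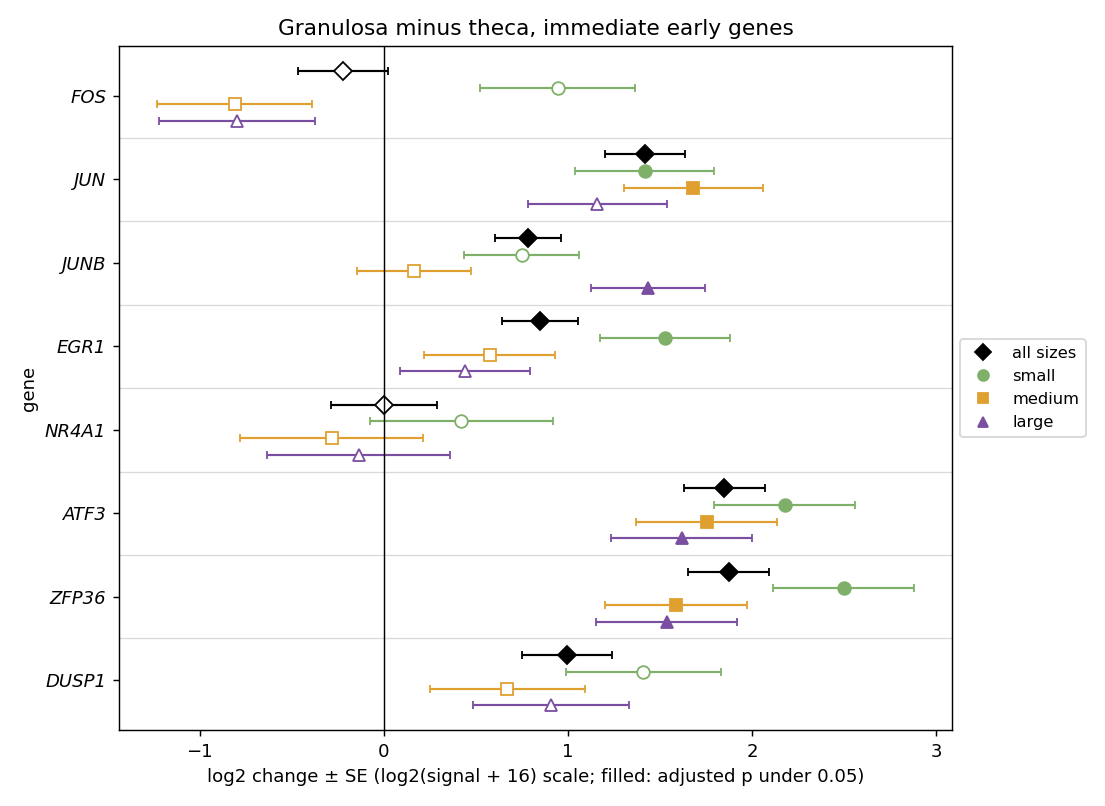
Granulosa minus theca change of each gene on the log2(signal + 16) scale with its SE, over all sizes (diamonds) and within small (circles), medium (squares) and large (triangles) follicles, filled where the limma adjusted p was under 0.05. ATF3 and ZFP36 are filled in all 4 comparisons, and FOS and NR4A1 in none.

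The order of the groups differed between genes. For ZFP36 the groups ran, without overlap of neighbours, from large granulosa through small granulosa, medium granulosa and large theca to medium theca, and only medium and small theca overlapped. JUN was highest in small granulosa, with large and medium granulosa overlapping below it, and its 3 theca groups below those. ATF3 was highest in small and large granulosa, which overlapped, followed by medium granulosa and then large, small and medium theca with no overlap. For FOS every pair of neighbours in the order overlapped.

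The second comparison set follicle sizes against each other within a layer. No member passed in any of the 6 size comparisons with limma. In granulosa, medium against small gave 4 members at an unadjusted p under 0.05 (3.37% of all probe sets), large against small 3 (14.4%) and large against medium 2 (11.6%). In theca these numbers were 0 (6.2%), 2 (10.2%) and 2 (3.13%). The shares of all tested probe sets called were 0.0058%, 2.22% and 0.679% in granulosa and 0.0116%, 0.0348% and 0% in theca, in the same order. The granulosa shares rest on single arrays. Large against small had 382 called probe sets, which became 0 when granulosa large replicate 1 was left out and 725 when large replicate 2 was. Leaving out small replicate 1 or 2 of granulosa gave 2 and 61, respectively. Large against medium had 117, and 0 without granulosa large replicate 1 or granulosa medium replicate 2. At an unadjusted p under 0.05 these limma fits with 0 calls still had 1030 to 1825 probe sets.

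In granulosa FOS had the lowest p-values of the members for the steps from small follicles. Its medium pools lay 1.90 ± 0.42 below its small pools on the log2 scale (unadjusted p = 0.0005, adjusted p = 0.331 with limma, n = 2 pools each). Its large pools lay 1.44 ± 0.42 below the small ones (adjusted p = 0.101). The small pools did not overlap with either, and the dimmer probe set gave -1.68 and -1.41 for the same steps. The large against small difference passed with arrays scaled to one median (-1.68, adjusted p = 0.0333), a setting that moves the median change of all tested probe sets from 0.04 to -0.17.

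NR4A1 (-1.49 ± 0.50), EGR1 (-1.09 ± 0.35) and ATF3 (-1.01 ± 0.38) were the other members at an unadjusted p under 0.05 in granulosa medium against small follicles, each with an adjusted p of 1 in limma. JUNB (-0.62), JUN (-0.48) and ZFP36 (-0.29) were also negative, and DUSP1 was 0.15. The dimmer EGR1 probe set gave only -0.21 for this step (unadjusted p = 0.518 with limma). From small to large follicles it gave 0.35, where the brighter one gave -0.86. At the brightest probe sets, medium granulosa pools had the lowest group mean of their layer for 7 of the 8 genes, without a call. For JUN this depended on the probe set. At the next brightest and the fourth the large pools were lowest (mean log2 9.93 against 9.95 and 7.30 against 7.40 in medium). At the third and the dimmest the medium pools were.

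From medium to large follicles, granulosa gave positive differences for 8 of 8 members at their brightest probe sets, from 0.12 for JUN to 1.35 ± 0.31 for JUNB (limma adjusted p = 0.0659). Their median was 0.62, against 0.04 over all tested probe sets. Among the other JUN probe sets the next brightest gave -0.02 and the fourth -0.10, while the third gave 0.27 and the dimmest 0.44. JUNB passed at the threshold without theca small replicate 1 or 2 (adjusted p = 0.0499 and 0.0496) and with log2(signal + 64) (0.0457). NR4A1 (1.04), ZFP36 (0.82) and ATF3 (0.77) came next. With arrays scaled to one median, JUN (-0.15) and EGR1 (-0.04) turned negative. In the large granulosa pools 13 of 13 tested myeloid markers and 7 of 9 lymphocyte markers were called higher than in small ones, with median changes of 3.59 and 2.26, and their part in the member levels was not tested. Without granulosa large replicate 1 these marker calls were lost, since 0 probe sets were called in that comparison (1825 had an unadjusted p under 0.05 in limma).

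In theca the largest size difference at the brightest probe set of each gene was that of ZFP36, 1.50 ± 0.38 from small to large follicles (limma adjusted p = 0.232). The large theca pools, 258 and 313, lay above all 4 other theca pools. It passed without theca small replicate 2 (1.84, adjusted p = 0.0391), which leaves only the array with the high GAPDH ratio in its group and raised the calls over all probe sets from 6 to 611. DUSP1 gave 1.08 (adjusted p = 0.415) over the same step, and the other 6 members lay between -0.10 and 0.31 at their brightest probe sets. The dimmer FOS probe set gave a larger 1.65 ± 0.59 (limma adjusted p = 0.371), with 42.7 and 161 in the small theca pools. The third brightest JUN probe set gave 0.99 (adjusted p = 0.477), and the remaining JUN and EGR1 probe sets lay between -0.26 and 0.41. From small to medium theca the members ran from -0.79 for NR4A1 to 0.89 for DUSP1 at their brightest probe sets. The dimmer FOS probe set gave 0.95 and the fourth brightest JUN probe set -0.95 over that step. NR4A1 passed there without theca small replicate 2 (-1.78, adjusted p = 0.0436) and turned to 0.20 without replicate 1. From medium to large theca 8 of 8 were positive, with ATF3 and NR4A1 highest at 0.90 and a median of 0.55, against -0.01 over all tested probe sets. The summed granulosa marker signal on theca arrays was 9858 and 10850 in small, 17040 and 11100 in medium and 18160 and 25270 in large pools. Of 13 tested granulosa markers, 2 were called higher in large than in small theca and 0 lower, with a median change of 0.08. The part of granulosa cells in the theca levels of the members was not tested.

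**Figure D4:**
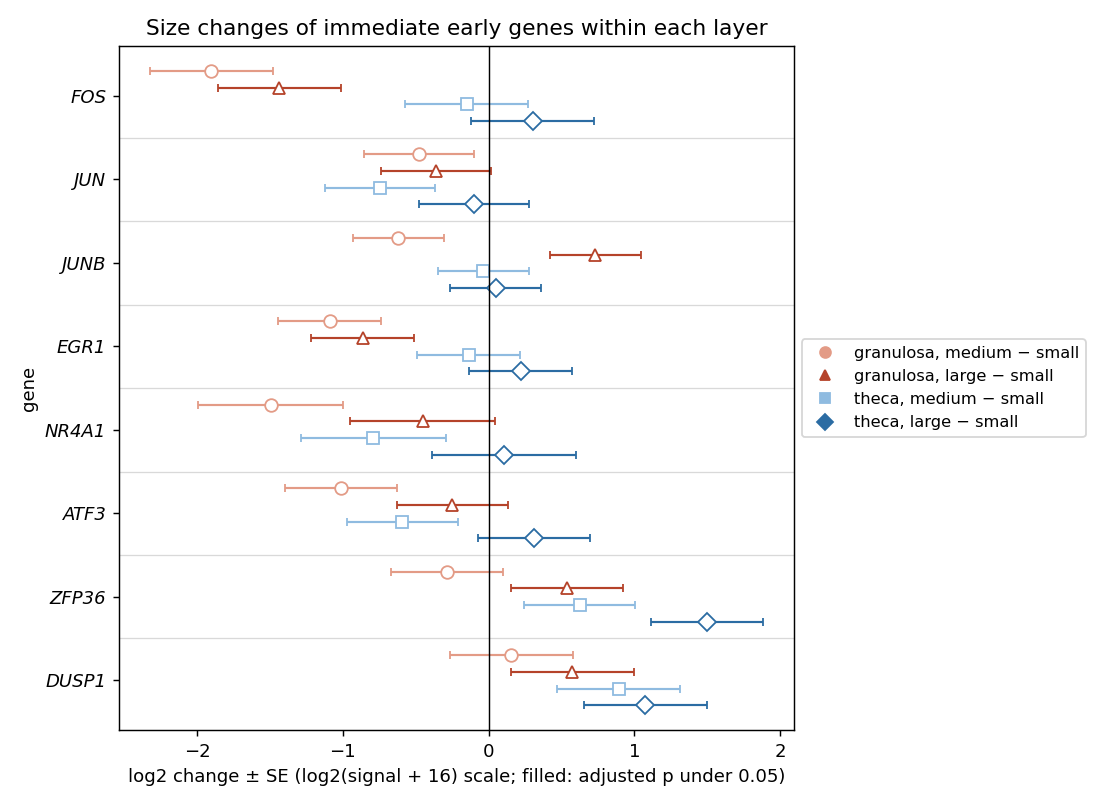
Change of each gene from small to medium and from small to large follicles on the log2(signal + 16) scale with its SE, in granulosa (red) and theca (blue), filled where the limma adjusted p was under 0.05. No symbol is filled, and FOS in granulosa lies farthest below 0 at -1.90.

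Whether the layers differed in their size changes was tested as an interaction. No member passed, while 1, 2 and 1 had an unadjusted p under 0.05 for the medium against small, large against small and large against medium steps (2.51%, 10.6% and 7.52% of all probe sets in limma). FOS had the lowest p-values for the steps from small follicles, -1.75 ± 0.60 to medium (adjusted p = 0.9995) and -1.74 ± 0.60 to large (adjusted p = 0.311). Its dimmer probe set gave -3.06 ± 0.83 for the latter (adjusted p = 0.198). JUNB had the lowest p for the last step, 1.27 ± 0.44 (adjusted p = 0.457). The shares of all probe sets called were 0%, 0.0116% and 0.0232%.

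Replicate pools of one group differed, to an extent that varied between groups. In granulosa small and in theca medium follicles 8 of 8 members were higher in replicate 1, against 52.3% and 52.4% of all probe sets. The numbers were 6 in granulosa medium, 5 in granulosa large, 4 in theca small and 6 in theca large. The differences between replicates reached 0.998 for FOS in granulosa small, 1.12 for ZFP36 in theca medium and 1.98 for NR4A1 in theca small follicles, on the log2(signal + 16) scale. These are of the size of many layer and size differences above.

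Related genes were read from lists, whose counts stand beside the 24.8% of all tested probe sets called in this comparison. Of 11 tested other AP-1 and ATF/CREB genes, 1 was higher in granulosa over all sizes and 0 were lower, with a median change of 0.30 against 0.10 for all tested probe sets. It was FOSL1, another FOS family subunit, with 51.2 to 99 in granulosa and 16.8 to 37.6 in theca (1.22 ± 0.19, limma adjusted p = 0.000432). FOSB gave 0.30 and was not called (adjusted p = 0.368). Large granulosa pools had more BATF, an AP-1 factor of lymphoid and myeloid cells, than small ones (102.5 and 52.1 against 2.4 and 6.4, adjusted p = 0.0144), beside the immune markers given above. That call was lost without granulosa small replicate 1 (adjusted p = 0.166), granulosa small replicate 2 (0.0866) or granulosa large replicate 1 (0.180).

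Among 9 tested other early transcription factors, 3 were higher in granulosa and 1 lower, with a median of 0.06. BHLHE40, a repressor linked to the circadian clock, was higher by 2.23 ± 0.35, with 205 to 1456 in granulosa and 17 to 321 in theca. NFIL3 (0.78) and IER2 (0.74) were higher by less, and both lost the call in some fits with 1 array left out (adjusted p up to 0.0653 and 0.0731). KLF4, a zinc finger factor of epithelial and vascular cells, was lower (-1.36 ± 0.22), with 17.1 to 90.3 against 108 to 173.

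Among 14 tested feedback regulators, 5 were higher and 2 lower, with a median of 0.04. The kinase gene SGK1 was higher by 2.53 ± 0.42, the pseudokinase gene TRIB1 by 1.68 ± 0.20 and IER3 by 1.65 ± 0.32. ZFP36L1, a paralog of ZFP36 that also promotes decay of messenger RNAs, went the other way, with 192 to 1678 in granulosa and 1955 to 2701 in theca (-2.17 ± 0.27, limma adjusted p = 6.40e-05). The 2 paralogs thus had opposite layer differences, each without overlap between the layers at its brightest probe set.

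Of 13 tested early secreted and surface genes, 2 were higher and 2 lower, with a median of 0.20. PLAUR, the urokinase receptor, was higher by 2.07 ± 0.53 and PTGS2, the inducible prostaglandin synthase, by 0.97 ± 0.28. PTGS2 read 85.5 and 17.7 in small, 4.2 and 19.2 in medium and 35 and 11.4 in large granulosa pools, and 1.4 to 7.2 in theca. Only 85.5 and 35 lay above the filter signal of 22.5. It was tested in 21 of the 22 alternatives, since without granulosa small replicate 1 it did not pass the filter. A dimmer PTGS2 probe set gave 0.65 and was not called (limma adjusted p = 0.0514). The PTGS2 call was lost without granulosa medium replicate 2, granulosa large replicate 1, theca medium replicate 1 or theca large replicate 2 (adjusted p of 0.0605 to 0.0677). PLK2, an intracellular polo-like kinase that was placed in this list, was lower (-2.33 ± 0.24), as was ADAMTS1, a matrix protease (-1.64 ± 0.22). A dimmer ADAMTS1 probe set gave -0.57 and was not called (adjusted p = 0.129). In large against small granulosa, CCL2 (2.87, limma adjusted p = 0.0170) and CXCL8 (1.47, 0.0264), both chemokines, were called. Each lost the call without granulosa large replicate 1 (2.18 and 1.30) or without either small replicate. CXCL8 read 36.4 and 25.4 in the large granulosa pools, against 0.7 and 1 in the small ones. On all other arrays it read 0.7 to 9.2, so only the large granulosa pools lay above the filter signal of 22.5. It thus passed the filter only through the group in which it was called higher. Its difference ran from 0.55 to 4.09 over the alternatives.

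Of 11 tested upstream kinases and factors, 2 were higher in granulosa and 0 lower, with a median of 0.23. EGFR, the receptor of EGF-like ligands, gave 0.87 ± 0.23 and lost the call without theca large replicate 2 (0.77). It read 72.3 and 69.8 in small, 38.7 and 72.6 in medium and 18.8 and 20.7 in large granulosa pools. In theca it read 1.3 and 21.7, 30 and 23.9, and 24.1 and 10.2. The large pools of the layers thus overlapped, and several signals lay below the filter signal of 22.5. The 1.3 was on theca small replicate 1, the array with the high GAPDH ratio. Without that array the difference in small follicles was 1.21, against 1.77 on all arrays. MAPK14, the p38 kinase, gave 0.68 ± 0.17 at its brightest probe set, while a dimmer probe set of the gene gave -0.10 and was not called.

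Of 17 tested heat shock genes, which mark protein stress, 2 were higher and 2 lower, with a median of -0.10. CRYAB was higher by 2.05 ± 0.40 and HSPB8 lower (-2.62 ± 0.23), and both encode small chaperones. HSF1 (0.68) and HSPE1 (-0.62) were also called, and each lost the call in several fits that left out 1 array (adjusted p up to 0.116 and 0.118). The stress-inducible HSPA1A gave -0.60 (adjusted p = 0.0907) and was not called.

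Within single sizes the layers differed as follows. In small follicles SGK1 (3.15), BHLHE40 (2.68), TRIB1 (2.12), EGFR (1.77), FOSL1 (1.34) and SOCS3 (1.15) were higher in granulosa, and ZFP36L1 (-2.86), PLK2 (-2.48), ADAMTS1 (-2.02), HSPB8 (-1.71) and KLF4 (-1.53) were lower. In medium follicles TRIB1 (1.77) was higher, and HSPB8 (-3.45), PLK2 (-2.78), ZFP36L1 (-2.62), KLF4 (-2.04) and ADAMTS1 (-1.65) were lower. In large follicles BATF (1.66) and FOSL1 (1.56) were higher, and HSPB8 (-2.71) and PLK2 (-1.74) were lower. All of these were called with limma, and of the 46 called changes of listed genes over all contrasts 18 kept their call in all 22 alternatives, 28 lost it in some and 0 reversed.

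**Figure D5:**
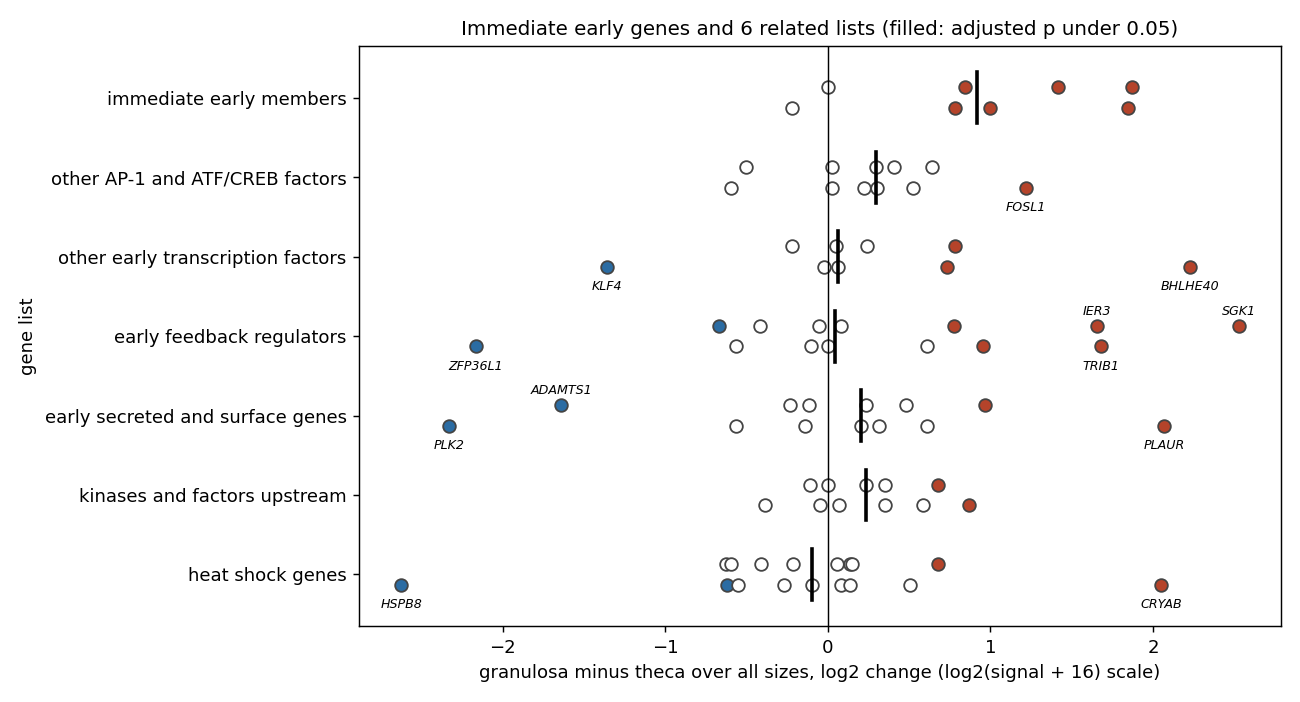
Granulosa minus theca change over all sizes on the log2(signal + 16) scale for the tested genes of the 8 members and of 6 related lists, 1 point per gene at its brightest probe set, filled where the limma adjusted p was under 0.05, with a bar at each list's median. The members' median is 0.92, and those of the other lists run from -0.10 to 0.30.

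The mean of the members' standardised log2 levels was highest on granulosa small replicate 1 (1.32) and lowest on theca medium replicate 2 (-1.11). Among 7885 other genes, those whose levels on the 12 arrays were most like that mean were RILPL2 (Pearson r = 0.892), IL22RA1 (0.892), KRT8 (0.883), CRABP2 (0.882), ABL1 (0.878) and MERTK (0.873). These correlations are descriptions, since the arrays share the layer difference, and each of the 6 genes was itself higher in granulosa over all sizes, by 0.78 to 3.77 on the log2 scale.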

How the data were processed

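The table deposited by the authors held linear signal intensities for each probe set, scaled to a 2% trimmed mean of 125.03 to 125.04. What software made them is not stated in these sources. Intensities became log2(signal + 16). Of 24128 probe sets 112 were controls, 10638 were unnamed and 86 had several symbols. Probe sets with a group mean above a signal of 22.5, the 40th percentile, were tested. A limma fit (version 3.58.1, R 4.3.3) with 1 mean per group over 12 arrays had 6 residual degrees of freedom; 13 contrasts were adjusted over all 17236 tested probe sets. With 2 arrays per group, exact permutation reaches no p lower than 0.333. The scripts were tested on simulated data. Figures used matplotlib 3.10.9 (Python 3.11.15).

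Named genes were the members, from each list the called genes that differed most (at most 4 over all sizes and 2 in any other contrast) and the 6 genes most like the members; FOSB, HSPA1A, TRIB1 and SOCS3 in small follicles and single probe sets were named after their values were seen. Members, lists and tests were chosen with earlier results of these data known. The 22 alternatives covered pseudocount, filter, normalization, replicate block, prior, samples fitted, arrays left out and probe set choice.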

Additional observations from a re-analysis of the deposited data

How the results depend on the processing

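Of 16 called member changes, 8 kept their call and direction in all 22 alternatives, 8 lost the call in some and 0 reversed. Of 72 uncalled ones, 21 changed sign in some. The layer differences in the medium against small and large against medium changes, where no member was called, are not among these 72. The count over all sizes was 6 throughout. Leaving out 1 array gave 2 to 5 members in small, 0 to 3 in medium and 0 to 3 in large follicles, 0 to 1 in granulosa large against medium, and 0 to 1 in theca medium or large against small. Fitting only the groups compared gave 2 in small and 1 in large follicles; log2(signal + 1) gave 1 in medium and 0 in large; scaling to one median gave 1 in large follicles and 1 in granulosa large against small; log2(signal + 64) gave 1 in granulosa large against medium; and leaving out both arrays that stood apart gave 0 in large follicles. The cause was not tested. The replicate numbers were not used to pair samples: over 15 pairs of groups the replicate deviations correlated at -0.335 to 0.402, 6 above 0.1. With the replicate block 1 member, FOS, was called in granulosa large against small (-1.44, adjusted p = 0.0298).

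These uncalled differences changed sign, and the cause was not tested. Averaging probe sets gave FOS 0.31 over all sizes and 0.40 in theca medium against small, and JUN 0.12 in theca large against small. Scaling to one median gave JUN -0.15 and EGR1 -0.044 in granulosa large against medium. Without both arrays that stood apart, NR4A1 was 0.42 over all sizes, 0.14 in large follicles and 0.20 in theca medium against small, JUN -0.063 in granulosa large against medium, FOS 0.0081 and JUNB 0.21 in theca medium against small, and the DUSP1 layer difference from small to large 0.40. Without 1 array, NR4A1 ran from -0.33 to 0.33 over all sizes, -0.57 to 1.41 in small and -0.42 to 0.14 in large follicles, and the dimmest JUN probe set from -0.17 to 0.13 in small follicles. In granulosa DUSP1 ran from -0.31 to 0.62 from small to medium, and ATF3 from -0.66 to 0.17 from small to large. From medium to large JUN ran from -0.063 to 0.30, EGR1 from -0.096 to 0.55 and DUSP1 from -0.041 to 0.88. In theca from small to medium FOS ran from -0.52 to 0.23, JUNB from -0.28 to 0.21 and NR4A1 from -1.78 to 0.20. From small to large FOS ran from -0.063 to 0.67, JUN from -0.45 to 0.24, JUNB from -0.20 to 0.29, EGR1 from -0.087 to 0.53 and NR4A1 from -0.89 to 1.10. From medium to large JUNB ran from -0.041 to 0.21. The layer difference from small to large ran from -0.61 to 0.088 for JUN and -1.55 to 0.43 for NR4A1. Of 22 called list genes over all sizes, 13 kept the call in all alternatives, 9 lost it in some and 0 reversed.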
